A study of Homo sapiens with 12 samples.

Results

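The Notch pathway was followed here through 10 listed genes: the receptors NOTCH1, NOTCH2, NOTCH3 and NOTCH4, the ligands JAG1, JAG2 and DLL1, and the target genes HES1, HEY1 and NRARP. They were found by symbol, by a rule that uses no measured value, in the 57783 genes of a read count table, which holds all 10. The list of members was chosen with earlier results of these data known. Of these, 9 passed the filter on low counts and were tested among 16327 genes; NOTCH4 did not pass. The libraries came from MDA-MB-468, an established human cell line of triple-negative breast cancer, so every group rests on this 1 line. Treatment lasted 10 days, with 0.5 µM of the compound EPZ5676 or with its solvent DMSO. EPZ5676, also called pinometostat, inhibits DOT1L, the enzyme that methylates histone H3 on lysine 79. After that treatment the cells were sorted by flow cytometry into ALDH1-positive (ALDH1+) and ALDH1-negative (ALDH1-) cells. ALDH1 is a class of aldehyde dehydrogenases that serves as a marker of stem-like breast tumour cells. Cells sorted as ALDH1- still held ALDH1 transcripts, as given below. The 4 groups were DMSO ALDH1+, EPZ5676 ALDH1+, DMSO ALDH1- and EPZ5676 ALDH1-, with 3 libraries each, labelled as biological replicates. The design asks what DOT1L inhibition does to gene expression in each sorted population and how the populations differ within each treatment.

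Notch receptors are membrane proteins that bind Jagged (JAG) and Delta-like (DLL) ligands on neighbouring cells. Binding lets ADAM proteases and then the gamma-secretase complex cut the receptor, and the freed intracellular domain enters the nucleus. There it joins the DNA-binding protein RBPJ and Mastermind-like coactivators and switches on genes such as HES1 and HEY1, which encode repressors, and NRARP, which encodes a feedback regulator of the pathway. In breast tissue the pathway is known for its roles in cell fate and in stem-like tumour cells.

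The stretch just before the start site of a gene is where RBPJ and the HES repressors can bind, so it is shown for HES1, NOTCH3 and JAG2. Among members with an entry in the promoter table, these are the target, the receptor and the ligand with the largest called change in ALDH1+ cells. Each line gives the 250 bases before the RefSeq start site (GRCh38.p14) on the strand of the gene, in lower case. Capitals mark TGGGAA, the core of the sequence that RBPJ recognises. HES1 lies on the plus strand at chr3:194135898-194136147, NOTCH3 on the minus strand at chr19:15200996-15201245 and JAG2 on the minus strand at chr14:105168777-105169026.
HES1: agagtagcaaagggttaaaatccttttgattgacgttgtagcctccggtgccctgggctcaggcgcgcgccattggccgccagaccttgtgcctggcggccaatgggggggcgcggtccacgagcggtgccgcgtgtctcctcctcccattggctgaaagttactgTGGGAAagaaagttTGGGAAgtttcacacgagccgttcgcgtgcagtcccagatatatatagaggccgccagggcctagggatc
NOTCH3: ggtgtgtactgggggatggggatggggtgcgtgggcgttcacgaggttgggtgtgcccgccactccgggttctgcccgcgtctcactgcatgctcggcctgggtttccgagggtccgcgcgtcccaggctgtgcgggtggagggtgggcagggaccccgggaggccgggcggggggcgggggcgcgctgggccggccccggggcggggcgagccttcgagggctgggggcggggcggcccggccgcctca
JAG2: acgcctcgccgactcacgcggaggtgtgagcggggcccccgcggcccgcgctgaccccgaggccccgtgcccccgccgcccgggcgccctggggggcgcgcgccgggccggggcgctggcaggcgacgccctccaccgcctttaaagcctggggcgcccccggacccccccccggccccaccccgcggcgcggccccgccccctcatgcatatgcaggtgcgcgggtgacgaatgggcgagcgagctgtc
Of the 10 genes, 8 had an entry in the promoter table; DLL1 and HEY1 did not. HES1 was the only 1 of these 8 with TGGGAA on either strand, and it held 2 copies, beginning 84 and 70 bases before the start. Over all 35116 promoters of that length, 20.8% held at least 1 TGGGAA and 2.9% held 2 or more. The N-box CACNAG, a sequence that HES proteins bind, was found in 3 of the 8: 3 times in HES1, once in NOTCH3, 211 bases before its start, and once in NOTCH4. It occurred in 32% of all promoters, and neither motif was found in JAG2. These matches describe the letters of the windows and were not tested as binding sites.

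EPZ5676 lowered NOTCH3 and raised JAG2 and DLL1 in both sorted populations. HES1 fell and HEY1 rose in ALDH1+ cells, and NOTCH1 fell in ALDH1- cells. In sorted bulk samples, fewer cells with a transcript and less of it per cell cannot be told apart. In ALDH1+ cells 3 of the 9 tested members were called higher and 2 lower, where a call is an adjusted p below 0.05 over all genes in the edgeR quasi-likelihood test. Over all genes, 31.5% were called in that comparison, 17.8% higher and 13.7% lower. In ALDH1- cells 2 members were called higher and 2 lower, beside 22.6% of all genes called, 13.6% higher and 9.04% lower. A fit that kept replicate numbers as blocks called 4 members higher and 3 lower in ALDH1+ cells, beside 22.2% and 19.6% of all genes. It called 2 higher and 2 lower in ALDH1- cells, beside 17.4% and 14.8%. The median log2 fold change of the members was 0.04 in ALDH1+ and -0.12 in ALDH1- cells, and that of all genes was -0.01 and -0.02. JAG2, DLL1 and NOTCH3 were called in both populations with the same sign. They made up 60% of the member calls in ALDH1+ and 75% of those in ALDH1- cells. This share was not computed for all genes, so it is not shown to be particular to the members. Without overlap between their libraries, 3 members lay higher and 3 lower in EPZ5676 ALDH1+ than in DMSO ALDH1+, beside 22% and 19.3% of all genes. In ALDH1- cells this held for 2 higher and 2 lower, beside 19.7% and 19.4% of all genes.

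**Figure D1:**
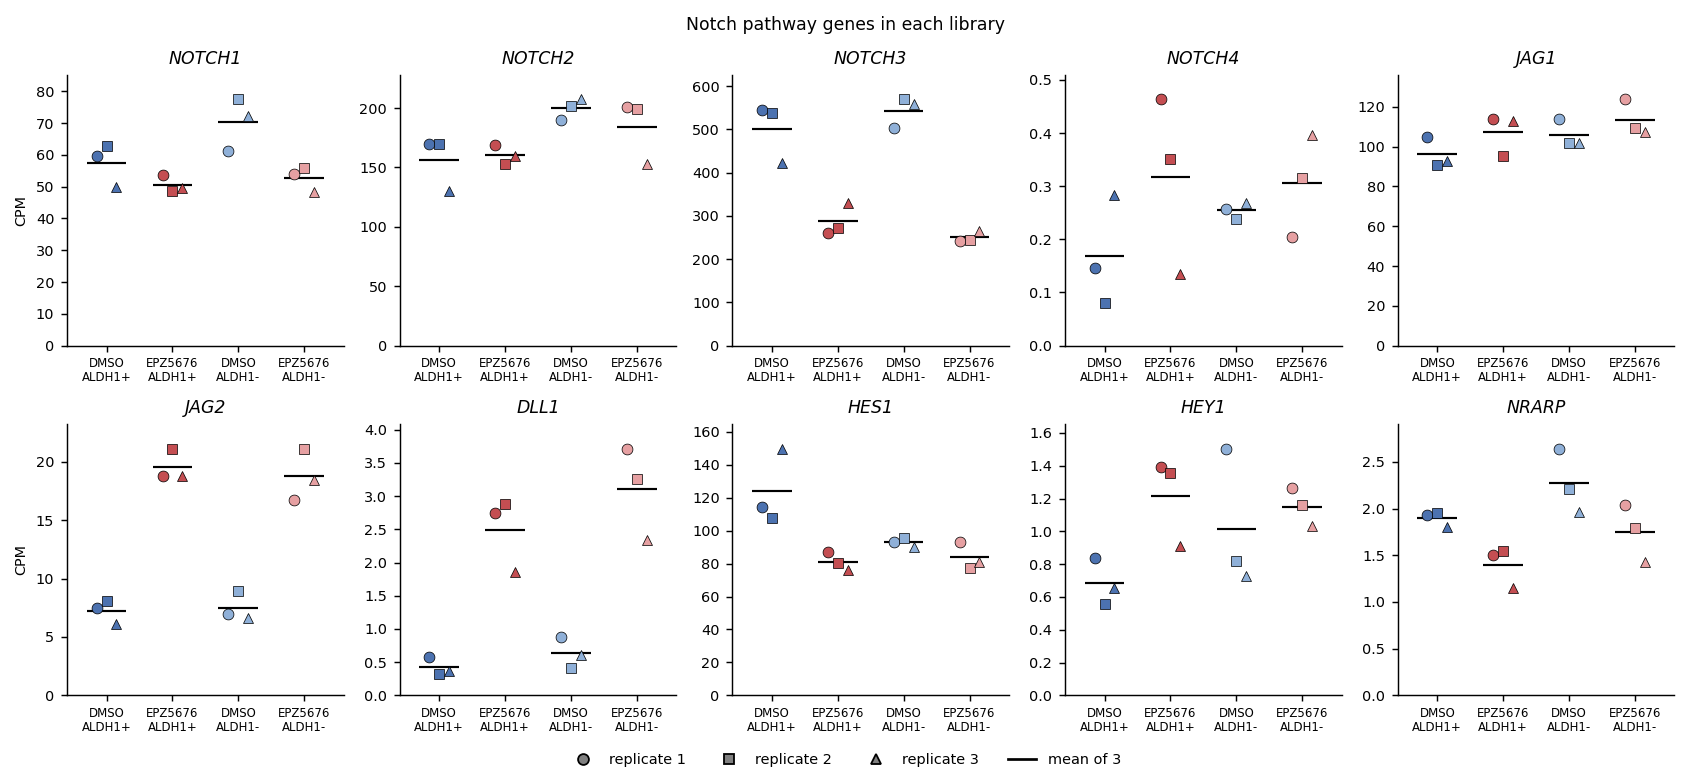
Level of each of the 10 genes in every library, in counts per 1000000 counts (CPM) on a separate linear axis for each gene that starts at 0; points are libraries, horizontal bars are group means, and the 4 groups are set side by side. NOTCH3 lies between 422 and 570 CPM in the DMSO libraries and between 242 and 330 CPM in the EPZ5676 libraries, while JAG2 and DLL1 show the opposite order.

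NOTCH3 (ENSG00000074181.4) was the receptor with the largest response and the only receptor called in both populations. In DMSO ALDH1+ cells its level was 545, 537 and 422 CPM in replicates 1, 2 and 3, and in EPZ5676 ALDH1+ cells it was 260, 273 and 330 CPM. The ALDH1- libraries had 502, 570 and 558 CPM with DMSO and 242, 245 and 265 CPM with EPZ5676. Every EPZ5676 library lay below every DMSO library, and the nearest pair were both libraries of ALDH1+ replicate 3. Means fell from 501 ± 68.9 to 288 ± 37.1 CPM in ALDH1+ and from 543 ± 36.1 to 251 ± 12.4 CPM in ALDH1- cells (SD, n = 3). The log2 fold change was -0.80 (SE 0.10, 95% confidence interval -1.02 to -0.58, edgeR adjusted p = 4.16e-05) in ALDH1+ cells. For ALDH1- cells the value was -1.12 (SE 0.11, interval -1.34 to -0.89, edgeR adjusted p = 3.73e-06). Within replicate numbers the log2 differences were -1.07, -0.98 and -0.35 in ALDH1+ and -1.05, -1.22 and -1.07 in ALDH1- cells, so replicate 3 of ALDH1+ gave the smallest fall.

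NOTCH1 (ENSG00000148400.9), the receptor best known from T-cell leukaemia, lay at 61.3, 77.5 and 72.4 CPM in DMSO ALDH1- cells and at 54.0, 55.9 and 48.2 CPM after EPZ5676. These groups did not overlap, and the log2 fold change was -0.42 (SE 0.10, edgeR adjusted p = 0.00801). Without DMSO ALDH1- replicate 2, the highest of the 12 libraries, it was -0.34 and no longer called (edgeR adjusted p = 0.0553). In ALDH1+ cells NOTCH1 was at 59.8, 62.9 and 49.9 CPM with DMSO and 53.6, 48.7 and 49.5 CPM with EPZ5676. There the groups overlapped and the log2 fold change of -0.18 (interval -0.40 to 0.03) was not called (edgeR adjusted p = 0.187).

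NOTCH2 (ENSG00000134250.13), a receptor with near-identical copies in the genome that may share its reads, passed no test of treatment. Its level was 169, 170 and 130 CPM in DMSO ALDH1+ and 169, 153 and 160 CPM in EPZ5676 ALDH1+ cells. Among ALDH1- cells it was 190, 202 and 207 CPM with DMSO and 201, 199 and 153 CPM with EPZ5676. The groups overlapped in both populations. The log2 fold changes were 0.04 (interval -0.20 to 0.27, edgeR adjusted p = 0.830) and -0.12 (interval -0.35 to 0.12, edgeR adjusted p = 0.498), and the sign of each turned when the libraries numbered 3 were left out (-0.08 and 0.04).

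NOTCH4 (ENSG00000204301.5), a receptor known from endothelial cells, had 2 to 28 counts per library. Its level was 0.146, 0.0797 and 0.283 CPM in DMSO ALDH1+ and 0.464, 0.351 and 0.135 CPM in EPZ5676 ALDH1+ cells. It was 0.257, 0.238 and 0.269 CPM in DMSO ALDH1- and 0.204, 0.316 and 0.396 CPM in EPZ5676 ALDH1- cells. DMSO ALDH1+ replicate 2, with 2 counts, was below the level that 3 counts give, and the groups overlapped in both populations. Tested without the filter, NOTCH4 was called in none of the comparisons below (edgeR adjusted p from 0.336 to 1), and no difference was detectable at this depth.

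Levels of different receptors were compared after division by the length of their annotated exons. On that scale of CPM per kb, NOTCH3 made up 78.2 ± 0.305% of the summed receptors in DMSO ALDH1+ and 75.6 ± 0.122% in DMSO ALDH1- cells (SD, n = 3). With EPZ5676 its share was 67.8 ± 3.28% in ALDH1+ and 62.5 ± 4.10% in ALDH1- cells, while that of NOTCH2 went from 13.6% to 21.3% and from 15.6% to 25.6%. The share of NOTCH1 was 8.14% and 10.9% in the ALDH1+ groups and 8.84% and 11.9% in the ALDH1- groups, DMSO first. The summed receptor level was 68.2 ± 9.32 CPM per kb in DMSO ALDH1+, 45.1 ± 3.75 in EPZ5676 ALDH1+, 76.6 ± 5.10 in DMSO ALDH1- and 42.8 ± 0.708 in EPZ5676 ALDH1- cells. NOTCH3 thus remained the most abundant receptor transcript in every group. Shares of a sum move together, and NOTCH2 itself was not called.

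**Figure D2:**
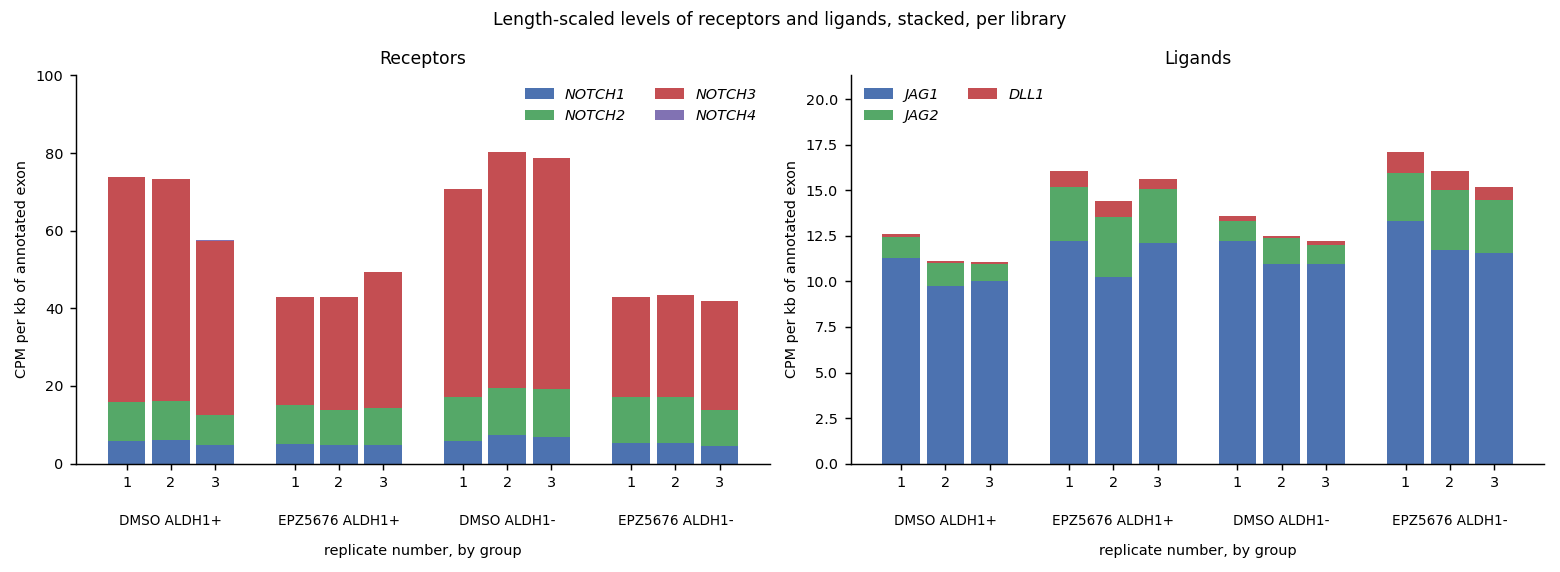
Stacked bars of length-scaled level (CPM per kb of annotated exon, linear axis from 0) in each of the 12 libraries, for the 4 receptors on the left and the 3 ligands on the right; numbers under the bars are replicate numbers. NOTCH3 is the tallest receptor segment in every library and shrinks with EPZ5676, and JAG1 is the tallest ligand segment in every library while the JAG2 and DLL1 segments grow with EPZ5676.

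Among the ligands, JAG2 (ENSG00000184916.4), a membrane-bound Jagged ligand, rose in both populations. It lay at 7.49, 8.09 and 6.07 CPM in DMSO ALDH1+ and at 18.8, 21.1 and 18.8 CPM in EPZ5676 ALDH1+ cells. ALDH1- cells had 6.96, 8.91 and 6.60 CPM with DMSO and 16.8, 21.1 and 18.5 CPM with EPZ5676. The lowest EPZ5676 library was well above the highest DMSO library in each population. The rise was 2.75-fold in ALDH1+ (log2 1.46, SE 0.14, edgeR adjusted p = 1.95e-06) and 2.50-fold in ALDH1- cells (log2 1.32, SE 0.14, edgeR adjusted p = 9.05e-06).

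DLL1 (ENSG00000198719.7), a Delta-like ligand, had the largest fold change of the members but a low level. With DMSO it had 8 to 21 counts per library in ALDH1+ and 12 to 24 in ALDH1- cells. Its level was 0.582, 0.319 and 0.372 CPM in DMSO ALDH1+ and 2.75, 2.88 and 1.85 CPM in EPZ5676 ALDH1+ cells. ALDH1- cells had 0.880, 0.408 and 0.614 CPM with DMSO and 3.71, 3.26 and 2.34 CPM with EPZ5676, again with no overlap. The rise was 6.03-fold in ALDH1+ (log2 2.59, SE 0.30, edgeR adjusted p = 1.29e-05) and 4.90-fold in ALDH1- cells (log2 2.29, SE 0.29, edgeR adjusted p = 5.08e-05).

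JAG1 (ENSG00000101384.7), the ligand mutated in Alagille syndrome, was not called in either population. Its level was 105, 90.7 and 93.0 CPM in DMSO ALDH1+ and 114, 95.2 and 113 CPM in EPZ5676 ALDH1+ cells, with overlapping groups. In ALDH1- cells it was 114, 102 and 102 CPM with DMSO and 124, 109 and 107 CPM with EPZ5676, also overlapping. The log2 fold change was 0.16 (interval -0.03 to 0.34, edgeR adjusted p = 0.197) in ALDH1+ and 0.10 (interval -0.09 to 0.29, edgeR adjusted p = 0.472) in ALDH1- cells. In a fit that kept replicate numbers as blocks, the ALDH1+ difference of 0.16 was called (edgeR adjusted p = 0.0453), as were 41.8% of all genes.

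Shares per kb of exon were taken of the sum of the 3 listed ligands only. DLL3, outside this sum, lay at 1.52 CPM per kb in DMSO ALDH1+ and 1.38 in DMSO ALDH1- cells, above JAG2 at 1.13 and 1.17. With EPZ5676 DLL3 lay at 2.36 and 2.09 CPM per kb, below JAG2 at 3.06 and 2.94. The share of JAG1 was 89.1 ± 1.32% in DMSO ALDH1+ and 89.3 ± 1.24% in DMSO ALDH1- cells (SD, n = 3). After EPZ5676 the share of JAG1 was 74.9 ± 3.50% and 75.7 ± 2.43%. The share of JAG2 lay between 8.58% and 11.4% in DMSO ALDH1+ and between 18.4% and 22.9% in EPZ5676 ALDH1+ libraries. In ALDH1- libraries it was at most 11.1% with DMSO and between 15.3% and 20.6% with EPZ5676. The mean share of DLL1 went from 1.12% to 5.06% in ALDH1+ and from 1.53% to 5.94% in ALDH1- cells. The summed ligand level was 11.6 ± 0.887 CPM per kb with DMSO and 15.4 ± 0.840 with EPZ5676 in ALDH1+ cells, and 12.8 ± 0.744 and 16.1 ± 0.958 in ALDH1- cells. The sum of the 3 ligands was thus higher and that of the 4 receptors lower in all EPZ5676 libraries than in the DMSO libraries of the same population.

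Of the target genes, HES1 (ENSG00000114315.3), which encodes a basic helix-loop-helix repressor, fell in ALDH1+ cells. It lay at 115, 107 and 150 CPM in DMSO ALDH1+ and at 86.9, 80.3 and 76.4 CPM in EPZ5676 ALDH1+ cells. In ALDH1- cells it lay at 92.9, 95.6 and 90.3 CPM with DMSO and at 93.4, 77.6 and 80.8 CPM with EPZ5676. The 3 DMSO ALDH1+ libraries were the highest of all 12, with replicate 3 above the others, and the ALDH1- groups overlapped. The log2 fold change in ALDH1+ cells was -0.61 (SE 0.11, interval -0.84 to -0.38, edgeR adjusted p = 5.84e-04), and the differences within replicate numbers were -0.40, -0.42 and -0.97. Without DMSO ALDH1+ replicate 3 it was -0.45 and still called (edgeR adjusted p = 0.00147). In ALDH1- cells it was -0.15 (interval -0.38 to 0.08, edgeR adjusted p = 0.371).

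HEY1 (ENSG00000164683.12), a related repressor, had 14 to 108 counts per library. It was at 0.837, 0.558 and 0.655 CPM in DMSO ALDH1+ and at 1.39, 1.35 and 0.910 CPM in EPZ5676 ALDH1+ cells, without overlap. The log2 fold change there was 0.86 (SE 0.27, edgeR adjusted p = 0.0268). The call was lost without DMSO ALDH1+ replicate 2 or 3 (edgeR adjusted p = 0.0801 and 0.101) and without EPZ5676 ALDH1+ replicate 1 or 2 (0.0750 and 0.117). In ALDH1- cells it was at 1.50, 0.816 and 0.729 CPM with DMSO and 1.26, 1.16 and 1.03 CPM with EPZ5676, and the log2 fold change of 0.18 (interval -0.43 to 0.79) was not called (edgeR adjusted p = 0.708). HES1 and HEY1 therefore moved in opposite directions in the ALDH1+ cells.

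NRARP (ENSG00000198435.2), which encodes a small ankyrin repeat protein that limits Notch signalling, had 34 to 123 counts per library. It was at 1.93, 1.95 and 1.81 CPM in DMSO ALDH1+ and at 1.50, 1.54 and 1.15 CPM in EPZ5676 ALDH1+ cells, without overlap. The log2 fold change of -0.41 (SE 0.18) was not called (edgeR adjusted p = 0.101), but with replicate numbers as blocks it was -0.44 and called (edgeR adjusted p = 0.0307). In ALDH1- cells NRARP was at 2.64, 2.21 and 1.96 CPM with DMSO and 2.04, 1.79 and 1.43 CPM with EPZ5676, overlapping, with a log2 fold change of -0.37 (edgeR adjusted p = 0.183).

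**Figure D3:**
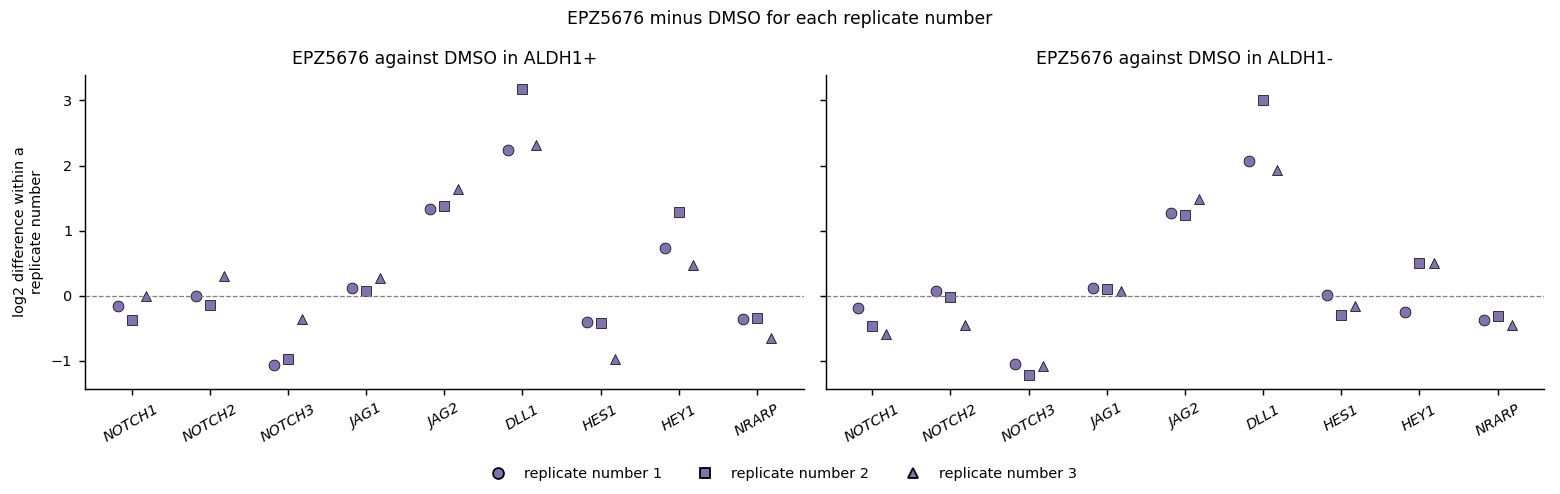
Log2 difference between the EPZ5676 and the DMSO library of the same replicate number, for the 9 tested genes in ALDH1+ (left) and ALDH1- cells (right); the symbol shape gives the replicate number and the dashed line marks no difference. All 3 differences are above 0 for JAG2 and DLL1 and below 0 for NOTCH3 in both panels, and NOTCH3 in ALDH1+ replicate 3 (-0.35) is nearer to 0 than the other NOTCH3 values.

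Ordered by mean level per kb over the 12 libraries, HES1 (46.3 CPM per kb) and NOTCH3 (42.1) came first, followed by JAG1 (11.4), NOTCH2 (10.4) and NOTCH1 (5.57). JAG2 (2.07), NRARP (1.03), DLL1 (0.516), HEY1 (0.315) and NOTCH4 (0.0268) were lower. The members that rose after EPZ5676, JAG2, DLL1 and HEY1, were all among the lower of these, and the called falls were in HES1, NOTCH3 and NOTCH1.

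Between ALDH1+ and ALDH1- cells of the same treatment, no member was called in the fit without blocks. With replicate numbers as blocks, 3 were called in DMSO and 0 in EPZ5676 cells. Without blocks, the edgeR test in DMSO called 0% of all genes. An unadjusted p below 0.05 was found for 3 members and for 17.8% of all genes. HES1 was higher in every DMSO ALDH1+ library (107 to 150 CPM) than in any DMSO ALDH1- library (90.3 to 95.6 CPM), with a log2 difference of 0.42 (SE 0.11, edgeR adjusted p = 0.161). NOTCH2 was lower, at 130 to 170 against 190 to 207 CPM, with a log2 difference of -0.35 (SE 0.11, edgeR adjusted p = 0.171). For NOTCH1, with overlapping groups, it was -0.29 (SE 0.10, edgeR adjusted p = 0.183). NRARP was also without overlap, 1.81 to 1.95 against 1.96 to 2.64 CPM, with a log2 difference of -0.27 (edgeR adjusted p = 0.454). Thus 1 member was without overlap higher and 2 lower, beside 10.6% and 12.4% of all genes.

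The fit with replicate numbers as blocks called 3 members in this comparison, beside 8.48% of all genes. They were HES1 (log2 difference 0.41, edgeR adjusted p = 0.0234), NOTCH2 (-0.37, edgeR adjusted p = 0.0266) and NOTCH1 (-0.30, edgeR adjusted p = 0.0436). DESeq2 called 1 member, HES1 (adjusted p = 0.0285), and limma-voom called 0. Without DMSO ALDH1+ replicate 3, which had the most HES1 and the least NOTCH2 and NOTCH3 of its group, the edgeR log2 difference of HES1 was 0.26 (adjusted p = 0.593) and that of NOTCH2 was -0.23 (adjusted p = 0.613). The fall of HES1 with EPZ5676 in ALDH1+ cells and its higher level in DMSO ALDH1+ cells rest on the same 3 DMSO ALDH1+ libraries. The other differences were -0.12 for NOTCH3, -0.14 for JAG1, -0.07 for JAG2, -0.59 for DLL1 and -0.57 for HEY1.

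In EPZ5676 cells the edgeR test called 0 members, beside 0.0184% of all genes between the populations. No member had an unadjusted p below 0.05, beside 6.32% of all genes, and none was without overlap, beside 9.57% of all genes. DESeq2, limma-voom and the block also called 0 members. The log2 differences of the receptors were -0.06 for NOTCH1, -0.20 for NOTCH2 and 0.20 for NOTCH3. They were -0.08 for JAG1, 0.06 for JAG2 and -0.30 for DLL1 among the ligands, and 0.10 for HEY1, -0.31 for NRARP and -0.05 (interval -0.28 to 0.18) for HES1 among the targets.

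**Figure D4:**
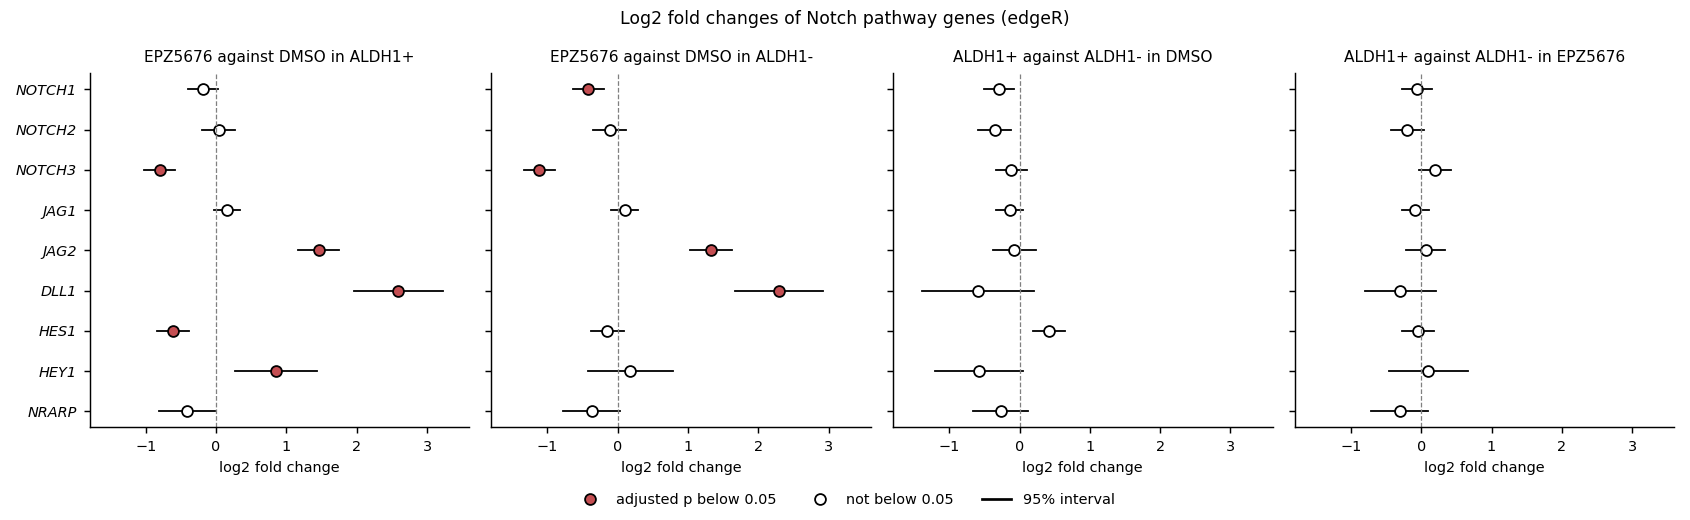
Log2 fold change of the 9 tested genes (points) with the 95% confidence interval (bars) in the 4 comparisons between groups; the intervals are for single genes without adjustment, filled points passed an adjusted p of 0.05 in the edgeR test, and the dashed line marks no change. In both comparisons of EPZ5676 with DMSO the intervals of NOTCH3, JAG2 and DLL1 lie away from 0. The fit shown holds no blocks, and in it no gene is called in the comparisons of ALDH1+ with ALDH1-.

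Whether the response to EPZ5676 differed between the populations was tested as an interaction. It called 0% of all genes in edgeR and 0 members, with an unadjusted p below 0.05 for 2 members and 3.66% of all genes. DESeq2 and limma-voom called 0 members as well. For HES1 the response in ALDH1+ minus that in ALDH1- cells was -0.46 (SE 0.15, interval -0.79 to -0.14, edgeR adjusted p = 0.979). For NOTCH3 it was 0.31 (SE 0.15, edgeR adjusted p = 0.979), the fall being smaller in ALDH1+ cells. For HEY1 it was 0.68 (interval -0.17 to 1.52) and for NOTCH1 0.23 (interval -0.07 to 0.54). For JAG2 it was 0.13 (interval -0.28 to 0.55) and for DLL1 0.30 (interval -0.63 to 1.23). The HES1 value was -0.31 without DMSO ALDH1+ replicate 3. Calls of HES1, HEY1 and NOTCH1 in 1 population are thus not shown to be particular to it. The interaction values of NOTCH2, JAG1 and NRARP, with all libraries, were 0.15, 0.06 and -0.04.

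The rest of the pathway was described with a list of 62 further genes, of which 58 passed the filter and DLK1, RBPJL, HES5 and HEYL did not. In ALDH1+ cells 19 of the 58 were called higher and 4 lower with EPZ5676, and in ALDH1- cells 15 higher and 5 lower. The percentages of all genes given above apply to these counts too. Of the genes called higher, DTX1, HES7, HELT and, in ALDH1+ cells, DLL4 passed the filter only with their EPZ5676 libraries. With so few counts in DMSO, a fall of these genes could hardly have been called. With replicate numbers as blocks, 22 were called higher and 11 lower in ALDH1+ cells, beside 22.2% and 19.6% of all genes, and 18 higher and 8 lower in ALDH1- cells, beside 17.4% and 14.8%. The blocked fit thus called more of the list lower, and the calls by role below are those without blocks unless stated. Their median log2 fold change was 0.04 and 0.02. Without DMSO ALDH1- replicate 2, 12 were called in ALDH1- cells in place of 20. In both populations 16 were called with the same sign, 69.6% of the calls in ALDH1+ and 80% of those in ALDH1- cells. For all genes this share was not computed, so it is not shown to be particular to the list. Up to 8 genes per comparison were taken by the smallest p; other genes below were named after their values were seen.

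Of 3 other ligands, DLL3, DLL4 and DLK2 were called higher in ALDH1+ cells, and DLL3 and DLK2 in ALDH1- cells. DLK2, a non-canonical ligand, went from 0.599 ± 0.307 to 1.93 ± 0.543 CPM in ALDH1- cells (log2 1.68, SE 0.34). DLL4, the Delta-like ligand of vessel sprouting, had at most 23 counts in any library. Of 4 genes for ubiquitin ligases that drive ligand endocytosis, NEURL1 was higher and MIB2 lower in ALDH1+, and MIB1 lower in ALDH1- cells. The blocked fit called 1 of these 4 higher and 2 lower in ALDH1+ cells. Of 5 genes for receptor glycosylation, MFNG, a Fringe glycosyltransferase, was called higher in ALDH1+ cells and none in ALDH1- cells, where the blocked fit called MFNG and POGLUT1 higher.

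Of 9 genes for receptor cleavage, PSEN2, APH1B and FURIN were called higher in both populations, and none lower, while the blocked fit called APH1A lower in ALDH1+ cells (log2 -0.17). FURIN, the convertase that processes the receptor precursor, rose from 26.3 ± 3.35 to 51.7 ± 4.73 CPM in ALDH1+ (log2 0.98, SE 0.12) and from 32.0 ± 5.01 to 53.0 ± 6.06 CPM in ALDH1- cells (log2 0.73, SE 0.12). APH1B, like PSEN2 a gamma-secretase subunit, rose from 1.35 ± 0.0569 to 2.89 ± 0.448 CPM in ALDH1+ cells (log2 1.11, SE 0.21).

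Of 9 genes for nuclear activators, KAT2B and MAML3 were called higher in both populations, MAML2 higher in ALDH1+ and KAT2A lower in ALDH1- cells. With blocks, 3 of the 9 were called higher and 1 lower in each population. KAT2B, a histone acetyltransferase, had the smallest p of the list in both, from 2.83 ± 0.336 to 6.15 ± 0.488 CPM in ALDH1+ (log2 1.14, SE 0.13, edgeR adjusted p = 1.17e-05) and from 2.63 ± 0.251 to 6.45 ± 0.110 CPM in ALDH1- cells (log2 1.29, SE 0.13, edgeR adjusted p = 9.06e-06). RBPJ itself lay at 77.4 ± 2.21 CPM in DMSO ALDH1+ and 78.7 ± 1.87 in EPZ5676 ALDH1+ cells, and at 77.0 ± 3.56 and 82.0 ± 3.48 in the ALDH1- groups. Its log2 fold changes of 0.02 (interval -0.11 to 0.16) and 0.09 (interval -0.04 to 0.23) were not called (edgeR adjusted p = 0.813 and 0.338).

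Of 12 genes for nuclear repressors, the Groucho corepressors TLE1 and TLE4 were called higher and CTBP2 lower in both populations, HDAC2 lower in ALDH1+ and SPEN lower in ALDH1- cells. With blocks, 2 of the 12 were called higher and 4 lower in each population. TLE4 rose from 41.5 ± 2.04 to 64.0 ± 2.84 CPM in ALDH1+ (log2 0.63, SE 0.08) and from 41.7 ± 1.19 to 57.9 ± 5.25 CPM in ALDH1- cells (log2 0.47, SE 0.08). TLE1 rose by 0.37 (SE 0.07) on the log2 scale in ALDH1- cells, from 99.2 ± 2.54 to 128 ± 5.76 CPM. Of 10 genes for receptor trafficking and turnover, DTX1, DTX3 and ITCH, all encoding ubiquitin ligases, were called higher in both populations, and DTX4 lower in ALDH1- cells. The blocked fit called 6 of these 10 higher and 1 lower in ALDH1+ cells, and 3 higher and 1 lower in ALDH1- cells. DTX1 had 4 counts in each DMSO ALDH1+ library, and went from 0.125 ± 0.0476 to 0.872 ± 0.270 CPM (log2 2.86, SE 0.42).

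Of 6 further HES and HEY family genes, HES2, HES7 and HELT were called higher in both populations, and HES6 lower in ALDH1+ cells. With blocks, 3 of the 6 were called higher and 2 lower in ALDH1+ cells, and 3 higher and 1 lower in ALDH1- cells. HES2 went from 7.53 ± 1.36 to 21.7 ± 6.14 CPM in ALDH1+ (log2 1.55, SE 0.21) and from 7.62 ± 1.59 to 18.3 ± 2.85 CPM in ALDH1- cells (log2 1.26, SE 0.22). HES7, known from the segmentation clock, went from 0.322 ± 0.00507 to 1.53 ± 0.464 CPM (log2 2.29, SE 0.32) and from 0.248 ± 0.148 to 1.70 ± 0.391 CPM (log2 2.74, SE 0.37). HELT had 1 to 5 counts in DMSO ALDH1+ and 0 to 3 in DMSO ALDH1- libraries, and its level was 0.120 ± 0.0890 and 0.0707 ± 0.0613 CPM there against 0.874 ± 0.0171 and 0.651 ± 0.257 CPM after EPZ5676. In ALDH1+ cells HES1 and HES6 thus fell while HEY1 and HES2 rose. HES7 and HELT are left out of this contrast, as they passed the filter only with their EPZ5676 libraries.

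**Figure D5:**
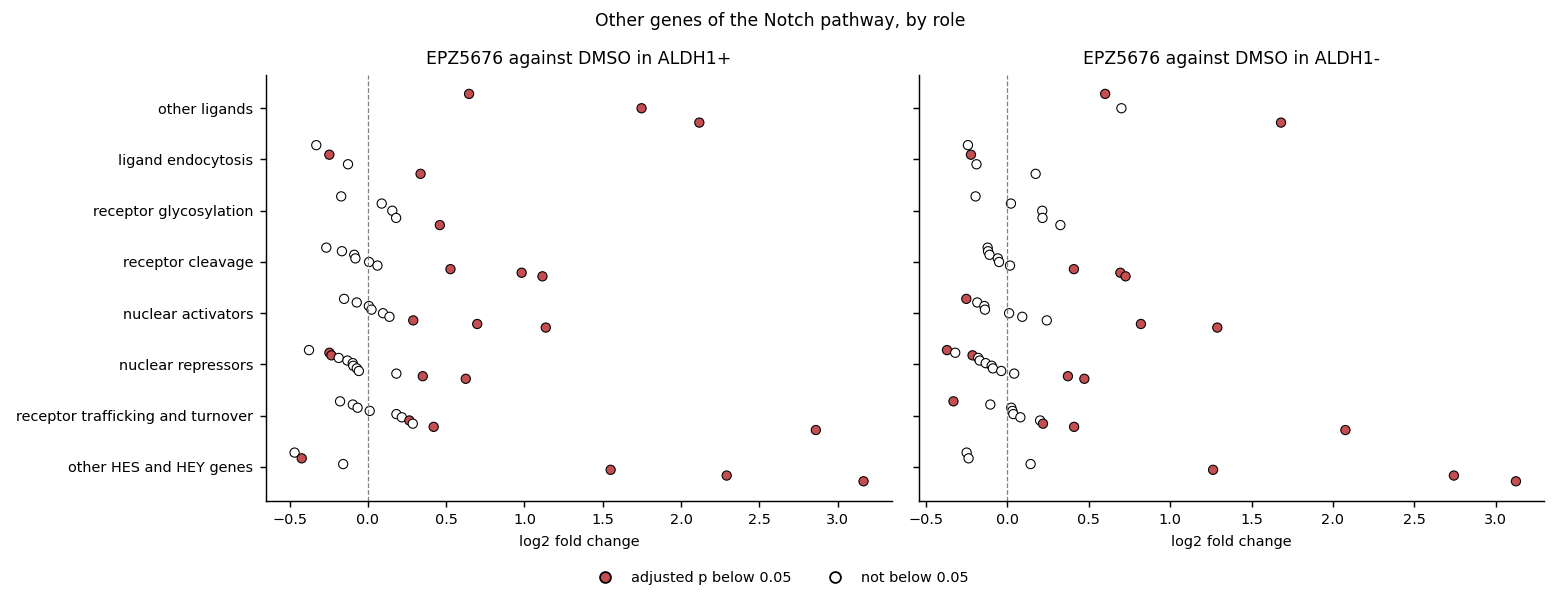
Log2 fold change with EPZ5676 of the 58 further pathway genes that passed the filter (1 point per gene), in rows by role, for ALDH1+ (left) and ALDH1- cells (right); filled points passed an adjusted p of 0.05 in the edgeR test without blocks. Points to the right of the dashed line are higher with EPZ5676. The 3 called receptor cleavage genes and HES2 lie to the right in both panels. HES7 and HELT do so too, but they passed the filter only with their EPZ5676 libraries, so a fall could hardly have been called.

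Between the populations in DMSO, edgeR and limma-voom called 0 of the 58 genes. An unadjusted p below 0.05 was found for 11, beside 17.8% of all genes. DESeq2 called 2 of the 58, where it called 298 genes in all. With replicate numbers as blocks 8 were called, beside 8.48% of all genes. All 8 were lower in ALDH1+ cells, among them DLL4, FURIN, EP300 and CREBBP. How the calls over all genes split by direction is not given here. In EPZ5676 cells 0 were called by edgeR, DESeq2 or limma-voom. There 3 had an unadjusted p below 0.05, beside 6.32% of all genes. There the block called 1, TLE3 (log2 difference -0.45, adjusted p = 0.0252), beside 0.459% of all genes. The interaction called 0, with 0 at an unadjusted p below 0.05, beside 3.66% of all genes.

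Over the whole series the libraries held 24348594 to 80195050 counts, at which 3 counts equal 0.0376 to 0.122 CPM. On the first principal component, the library numbered 3 lay apart from the other two in every group but DMSO ALDH1-, where the libraries were about evenly spaced. Without the libraries numbered 3, the response of NOTCH3 was -1.02 in ALDH1+ and -1.13 in ALDH1- cells, that of HES1 in ALDH1+ cells -0.41 (edgeR adjusted p = 0.00398). All 6 epithelial markers were found, at a summed 13823 to 17902 CPM, but single markers moved with treatment. In ALDH1+ cells EPCAM, KRT8, KRT19 and CDH1 were called lower with EPZ5676 (log2 -0.28, -0.25, -0.31 and -0.55), and EGFR, the largest part of the sum, was called higher, from 5955 ± 1206 to 9240 ± 1310 CPM. In ALDH1- cells CDH1 was called lower (log2 -0.67). The blocked fit also called KRT18 lower in ALDH1+, and KRT19 lower and EGFR higher in ALDH1- cells. Of the hormone receptors this tumour type lacks, PGR had at most 1 count, and ESR1 lay at 6.83 to 10.8 CPM. The HER2 gene ERBB2 was at 58.1 ± 5.05 CPM in DMSO ALDH1+ and 65.0 ± 1.34 in DMSO ALDH1- cells. With EPZ5676 it was at 37.6 ± 2.16 and 37.6 ± 3.38 CPM, called lower in both populations (log2 -0.63 and -0.79). ALDH1A1 was at 33.1 ± 5.21 CPM in DMSO ALDH1+ and 25.3 ± 2.94 in DMSO ALDH1- cells, and ALDH1A3 at 1643 ± 202 and 1371 ± 9.34 CPM, neither called without blocks (edgeR adjusted p = 0.201 and 0.171) and both called higher in ALDH1+ cells with them (0.0254 and 0.0417). With EPZ5676, ALDH1A1 was at 11.81 ± 2.09 CPM in ALDH1+ and 11.95 ± 1.76 in ALDH1- cells (log2 difference -0.03, not called). EPZ5676, given before the sort, lowered ALDH1A1 in ALDH1+ (log2 -1.51, edgeR adjusted p = 3.74e-06) and ALDH1- cells (log2 -1.08, edgeR adjusted p = 1.36e-04). ALDH1A3 was called higher with EPZ5676 in ALDH1+ cells only (log2 0.25). Between the EPZ5676 populations its log2 difference was 0.43, called only with blocks (edgeR adjusted p = 0.0158). The inhibitor acts on the DOT1L protein, so the DOT1L transcript, at 63.3 to 79.2 CPM as group means, does not check the treatment.

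Markers of other cell types were low but not equal between groups. The 4 fibroblast markers (COL1A1, COL1A2, PDGFRB and LUM, the last at 0) summed to 8.89 to 14.2 CPM in DMSO ALDH1+ and 10.6 to 13.5 in DMSO ALDH1- libraries. With EPZ5676 the sums were 21.3 to 25.0 and 18.5 to 20.6 CPM. Nearly all of this was COL1A1, from 11.6 ± 2.61 to 23.2 ± 2.20 CPM in ALDH1+ and from 11.8 ± 1.49 to 19.4 ± 1.16 in ALDH1- cells. COL1A1 was called higher in both, while COL1A2 and PDGFRB had group means of at most 0.300 CPM. The 4 leukocyte markers (PTPRC, CD3E, CD14 and CSF1R, with CD3E at 1 count or less) summed to 7.05 to 8.51 and 8.75 to 11.3 CPM with DMSO and to 9.24 to 12.3 and 11.3 to 16.7 CPM with EPZ5676. Most of the leukocyte sum was CSF1R, called higher in both populations. CD14 went from 2.60 ± 1.01 to 1.17 ± 0.386 CPM in ALDH1+ cells and was called lower there (log2 -1.21, edgeR adjusted p = 0.00315). The endothelial markers, 2 of 3 found, summed to at most 0.938 CPM. The part of these markers, and of the epithelial ones, in the changes of the Notch genes was not tested.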

How the data were processed

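The deposited table holds whole-number read counts per gene for 12 libraries, without normalization by the authors; each column name gives the treatment, population and replicate number of 1 library. Per the submitters' processing notes, Trim Galore and STAR were used with build hg19. How reads were counted, with which annotation and whether by strand, is not given in the sources used here, so overlapping, antisense and near-identical genes carry uncertain counts; the library kit was directional, per the labels' protocols. Ensembl identifiers, version dropped, were matched to symbols (51959 of 57783).

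The analysis used edgeR 4.0.16 under R 4.3.3: filterByExpr by group (16327 genes left), TMM scaling (trimmed mean of M values, factors 0.975 to 1.021), 1 quasi-likelihood model of all 4 groups, and Benjamini-Hochberg adjustment over all genes, called below 0.05. Standard errors and 95% intervals follow from each log2 fold change with its F value. Levels are counts per 1000000 counts (CPM) of the TMM-scaled library. Exon lengths are unions of annotated exons (GENCODE v29, build GRCh38), used as lengths only. Promoter sequences are RefSeq's (GRCh38.p14); motifs were searched on both strands, and a match of one may overlap the other. The fit was tested on simulated counts without differences between replicate numbers. In the 4 comparisons between groups, edgeR called 38.8% to 45.5% of the genes changed by 0.5 on the log2 scale. It called 75.5% to 82.5% of those changed by 1, so changes near 0.5 could often go uncalled.

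The members and lists were chosen with earlier results of these data known. The naming rule covered the 10 members and, of 62 further pathway genes, the called ones with the smallest p, at most 8 per comparison; the other called genes, RBPJ and genes called with blocks were named after their values were seen. Replicate numbers recur in all groups. Over 12354 genes, deviations from group means correlated at 0.17 to 0.65 in all 18 pairs of same-numbered libraries and at -0.66 to 0.22 in 36 differently numbered pairs, so the numbers pair the libraries; values with the number as a block stand where they change a member's call or a count of calls that the report leads with. No 2 libraries were duplicates. The alternatives tried were RLE scaling, library totals alone, no filter, at least 1 CPM in 3 libraries, DESeq2 1.42.0, limma-voom (limma 3.58.1), only the groups compared, the block, and leaving out each library. Leaving out the libraries numbered 3 was chosen after seeing the data.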

Additional observations from a re-analysis of the deposited data

How the results depend on the processing

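Of 717 recomputed values of the members under all alternatives, 686 kept their direction and their side of the threshold, 5 lost a call, 8 gained one and 18 turned in sign, all 18 of them in values that were not called. The calls of NOTCH3, JAG2 and DLL1 in both populations and of HES1 in ALDH1+ cells held under every alternative run. The calls that were lost, of HEY1 in ALDH1+ and NOTCH1 in ALDH1- cells, are given above with the libraries they rest on. The treatment effects of the wider list in ALDH1- cells gave 12 to 18 calls when single libraries were left out.

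Between the populations in DMSO, the number of genes called was 948 without a filter (2 members, NOTCH2 at -0.34 and HES1 at 0.43, and 6 of the wider list), 298 with DESeq2 (1 member, 2 of the wider list) and 1384 with the replicate block (3 members, 8 of the wider list). It was 0 to 1 with single libraries left out. In EPZ5676 it was 235 without a filter (1 of the wider list), 31 with DESeq2, 75 with the replicate block (1 of the wider list), 5 with only the groups compared, 61 without the libraries numbered 3 and 0 to 21 with single libraries left out. The interaction called 37 genes without a filter. The cause was not tested. Keeping replicate numbers as blocks changed no other call of a member than those given above.

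Without the libraries numbered 3, log2 values that turned in sign were those of NOTCH2 with EPZ5676 (-0.0821 in ALDH1+, 0.0356 in ALDH1-), NOTCH3 between the populations in DMSO (0.0227), and the interaction of NOTCH2 (-0.12) and JAG1 (-0.0273). With single libraries left out, NOTCH2 ranged from -0.0830 to 0.0986 in ALDH1+ and from -0.18 to 0.00604 in ALDH1- cells. JAG2 ranged from -0.16 to 0.0815 between the populations in DMSO, and in EPZ5676 JAG2 ranged from -0.0158 to 0.16, HES1 from -0.0988 to 0.0333 and HEY1 from -0.0052 to 0.25. For the interaction, JAG1 ranged from -0.00258 to 0.13, JAG2 from -0.0200 to 0.22, DLL1 from -0.0187 to 0.54 and NRARP from -0.17 to 0.0685. Genes with few counts, such as NOTCH4, DLL1 and HEY1, are limited by depth.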
